A study of Arabidopsis thaliana with 6 samples.

Results

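Genes for histones and for enzymes that copy, untangle or mend DNA were followed in leaf trichomes of Arabidopsis, hairs that are each a single outgrown cell of the leaf epidermis. A gene was taken if its symbol or synonyms in the gene table of the reference assembly contained one of 7 terms for histones, DNA replication, DNA polymerases, DNA repair, topoisomerases or replication factors, and if a probe set of the array named that gene alone. MCM7 and LIG4 were left out by the rule. The tables used here hold no separate description of each gene, so a gene known only by its locus could not be matched. Of 38 genes whose names matched, 8 had such a probe set, 1 was seen only through probe sets shared with other loci, and 29 had no probe set named for them here. The 8 genes, of 13356 genes named alone by a probe set, were 5 histone genes (HTB2, HTR12, MGH3, HON4 and HIS1-3), the topoisomerase genes TOPII and TOP3A, and the polymerase gene POLH. No member was matched through the terms for replication factors or DNA repair, so the set covers histones and topoisomerases better than the replication and repair machinery.

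Trichomes of wild-type plants were compared with those of the gtl1-1 mutant, both from rosette leaves of plants aged 3 weeks, grown on sugar-containing plates in continuous light with no treatment. The mutant carries the gtl1-1 allele of the trihelix transcription factor gene GTL1. Each genotype was represented by 3 biological replicates, each on 1 Affymetrix array, and the values are log2 expression estimates between 2.14 and 15.51. Trichomes were pulled off with forceps, so cells attached to them could be carried along. In such bulk RNA, fewer cells of a type and less RNA per cell cannot be told apart.

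Trichome cells copy their nuclear DNA several times without dividing, a process called endoreduplication, and GTL1 is known to hold back this process late in trichome growth. The comparison bears on whether transcripts for DNA packaging and DNA handling differ in the mutant, whose trichomes are known for a larger DNA content. Histones are the proteins around which DNA is wound, and in most plant cells the bulk of core histone transcripts is made while DNA is copied. Topoisomerases cut and rejoin DNA strands to release the twisting and tangling that copying causes.

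None of the 5 tested genes of the set passed the test in gtl1-1 trichomes. HTB2 (-0.27), HTR12 (-0.40) and TOPII (-0.45) had lower log2 means in the mutant, HON4 (0.22) a higher one, and TOP3A (-0.04) nearly equal means. Only probe sets whose signal exceeded the 40th percentile of the array, a value between 3.51 and 3.60, on at least 3 of the 6 arrays entered the test. Limma called 0 of the 5 at an adjusted p under 0.05, where 0.921% of all 13682 tested probe sets were called, and 0 of the 5 had an unadjusted p under 0.05, against 14.9% of all. The genotypes overlapped for each of the 5 genes, while 20.9% of all tested probe sets had no overlap. At such shares, 0 of 5 does not set these genes apart from the array as a whole, nor does it show that they were unchanged.

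HTB2 encodes histone H2B, one of the core histones of the nucleosome. It read 10.00, 10.09 and 9.18 on the wild-type arrays numbered 1, 2 and 3, and 9.28, 9.35 and 9.82 on the mutant arrays. Wild type replicate 3 was the lowest of all 6 arrays, and all 3 mutant values lay between it and the other wild-type values. The means were 9.76 ± 0.50 in wild type and 9.48 ± 0.30 in the mutant (log2, mean ± SD, n = 3 per genotype). The log2 change was -0.27 ± 0.27 (SE, limma adjusted p = 0.678), or -17.1%, with a 95% confidence interval from -47.0% to 29.6%. H2B genes form a family of closely similar copies, and whether this probe set also binds other copies was not tested.

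HTR12 encodes CENH3, the form of histone H3 that marks centromeres and anchors the kinetochore. Its values were 4.92, 5.35 and 4.21 in wild type and 4.07, 4.45 and 4.76 in the mutant. Wild type replicates 1 and 2 were the highest arrays, and wild type replicate 3 lay within the mutant range. The log2 change was -0.40 ± 0.31 (SE, n = 3 per genotype, limma adjusted p = 0.579), or -24.4%, and the 95% confidence interval ran from -54.5% to 25.7%.

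MGH3, a histone H3 gene named for its expression in male gametes, lay at the lowest value of the data, 2.14, on all 6 arrays. HIS1-3, a linker histone gene known for its induction by drought and abscisic acid, also read 2.14 on every array. For these 2 genes the background correction leaves only a floor value, so a decrease could not be measured and a small rise could stay hidden. No rise above the floor was seen on the mutant arrays.

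HON4, which the gene table names as a histone H1, differed in its pattern from HTB2 and HTR12. It read 9.65, 9.67 and 9.80 in wild type and 9.79, 9.67 and 10.33 in the mutant. The wild-type values were close together, and mutant replicate 3 alone lay clearly above them. The log2 change was 0.22 ± 0.19 (SE, n = 3 per genotype, limma adjusted p = 0.615), or 16.8%, with a 95% confidence interval from -14.5% to 59.6%. Without gtl1-1 mutant replicate 3 the change of HON4 was 0.02.

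**Figure D1:**
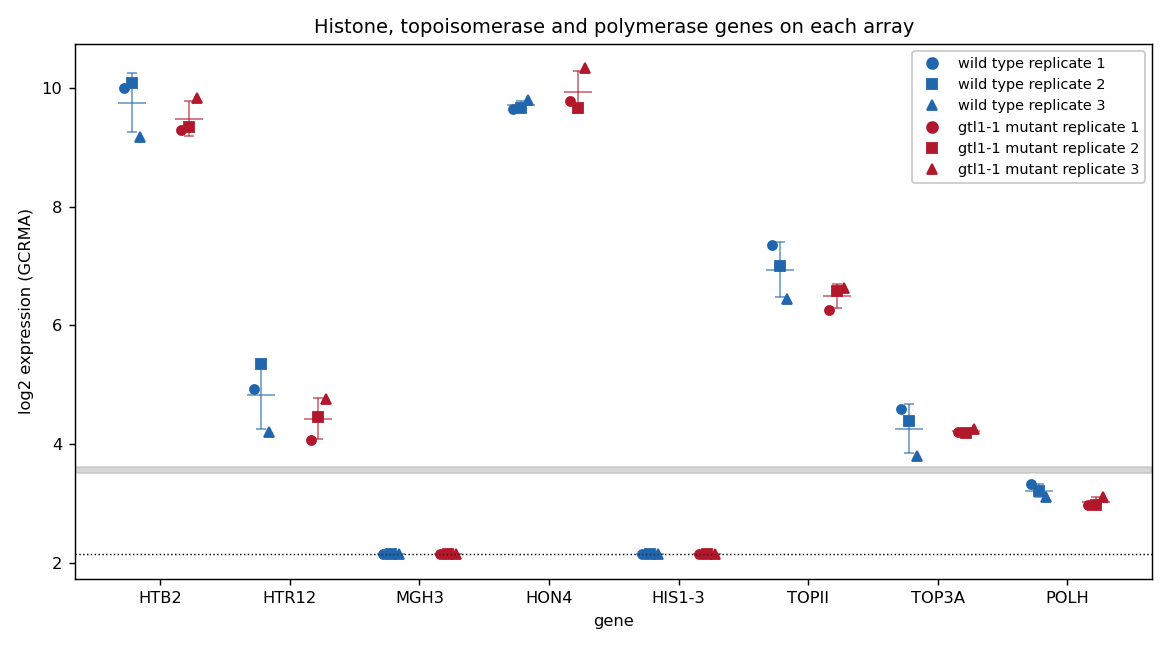
Log2 expression (vertical axis) of the 8 genes (horizontal axis) on each array. Blue symbols are wild type and red symbols the gtl1-1 mutant, with the replicate number given by the symbol shape. Horizontal ticks and bars are means ± SD of 3 arrays, the grey band is the 40th percentile of the arrays (3.51 to 3.60) and the dotted line the lowest value of the data (2.14). HTB2, HTR12, TOPII and TOP3A have their lowest wild-type value in replicate 3.

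TOPII encodes topoisomerase II, which passes one DNA duplex through another and separates copied chromosomes. It had the smallest p of the set. Its values were 7.36, 7.00 and 6.44 in wild type and 6.26, 6.58 and 6.63 in the mutant. Wild type replicates 1 and 2 lay above all mutant arrays, while wild type replicate 3 lay between the mutant values. The means were 6.93 ± 0.46 and 6.49 ± 0.20 (log2, mean ± SD, n = 3 per genotype). The log2 change was -0.45 ± 0.24 (SE, limma unadjusted p = 0.109, adjusted p = 0.445), or -26.6%, with a 95% confidence interval from -50.7% to 9.21%.

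TOP3A encodes topoisomerase 3 alpha, which acts with helicases to resolve joined DNA molecules during recombination. It read 4.58, 4.38 and 3.79 in wild type and 4.21, 4.18 and 4.25 in the mutant. The mutant values were nearly equal and lay inside the wild-type range. The log2 change was -0.04 ± 0.21 (SE, n = 3 per genotype, limma adjusted p = 0.949), with a 95% confidence interval from -30.9% to 36.7%. POLH encodes a polymerase of the Y family, which copies past damaged bases. It read 3.33, 3.20 and 3.11 in wild type and 2.96, 2.96 and 3.11 in the mutant, under the 40th percentile on each array, and was not tested. Its mean difference was -0.20, with the highest mutant value equal to the lowest wild-type value.

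**Figure D2:**
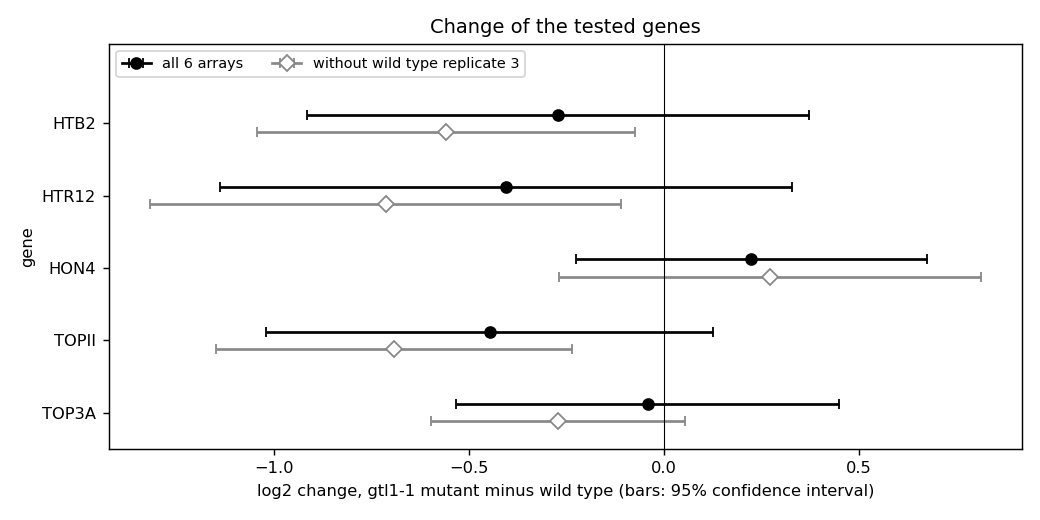
Log2 change, mutant minus wild type (horizontal axis), of the 5 tested genes (vertical axis), with 95% confidence intervals from limma. Filled circles use all 6 arrays and open diamonds leave out wild type replicate 3. With all arrays every interval includes 0, and without wild type replicate 3, an array singled out for its low values in these genes, those of HTB2, HTR12 and TOPII do not.

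Over the 5 tested genes the median log2 change was -0.27, beside -0.01 over all tested probe sets. Changes were below 0 for 4 of the 5, against 51.2% of all tested probe sets. The changes of TOPII and HTR12 were larger in size than those of 84.6% and 81.2% of the tested probe sets, that of HTB2 than 65.8%, that of HON4 than 58.0% and that of TOP3A than 12.8%. The median over the 3 tested histone genes was -0.27, and with no filter, which adds 2 genes at the floor, it was -0.00087. The median over the 2 tested topoisomerase genes was -0.24, and with 1 array left out it ran from -0.48 when wild type replicate 3 was dropped to -0.05 when wild type replicate 1 was. With no filter the median over all 8 genes was -0.12.

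**Figure D3:**
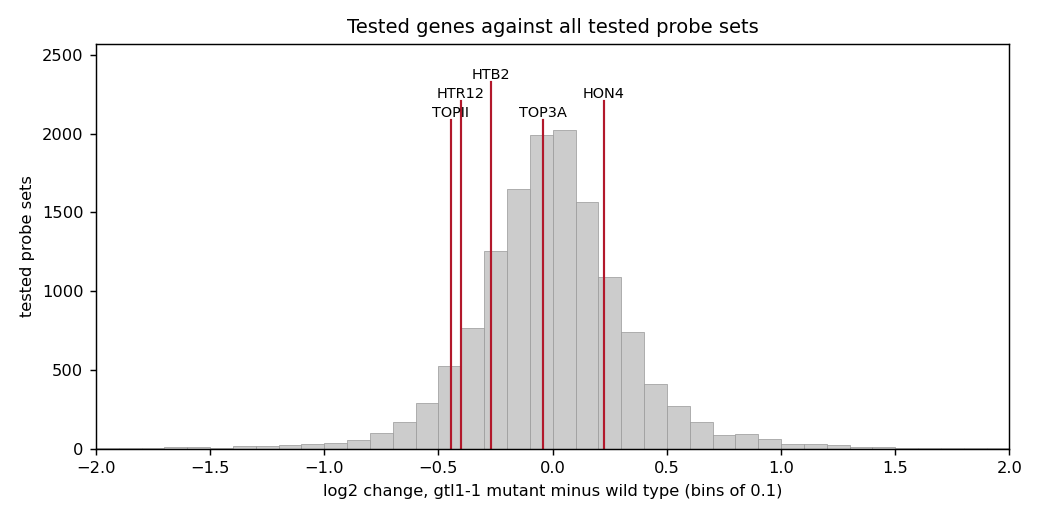
Number of tested probe sets (vertical axis) by log2 change, mutant minus wild type (horizontal axis, bins of 0.1). Red lines mark the 5 tested genes of the set, and the few changes beyond the plotted range are not drawn. TOPII and HTR12 lie on the lower shoulder of the distribution and TOP3A near its centre.

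The spread among the wild-type arrays was large for 4 of the 5 genes. The wild-type SD was 0.58 for HTR12, 0.50 for HTB2, 0.46 for TOPII and 0.41 for TOP3A, where the median over all tested probe sets was 0.19. These SDs exceeded those of 95.1%, 92.6%, 90.7% and 87.4% of the tested probe sets, while the SD of HON4 was 0.08. In the mutant the SDs were 0.35 for HON4, 0.35 for HTR12, 0.30 for HTB2, 0.20 for TOPII and 0.03 for TOP3A, with a median of 0.19 over all tested probe sets. These mutant SDs exceeded those of 82.3%, 81.8%, 74.3%, 53.6% and 3.33% of the tested probe sets.

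Much of the wild-type spread of HTR12, HTB2, TOPII and TOP3A lay in one array. Wild type replicate 3 was the lowest wild-type array for 4 of the 5 genes, as it was for 36.9% of all tested probe sets. It lay below the mean of the other wild-type arrays by 0.93 log2 units for HTR12, 0.86 for HTB2, 0.74 for TOPII and 0.69 for TOP3A. Gaps larger than these were found at 1.85%, 2.29%, 3.64% and 4.24% of the tested probe sets, and the median gap over all was -0.003. Gtl1-1 mutant replicate 3 was the highest mutant array for all 5 tested genes, against 35.7% of all tested probe sets.

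The values without wild type replicate 3 were therefore read beside those of all arrays. Since that array was singled out for its low values in these same genes, leaving it out had to make the mutant look lower for them, and the values without it are a description and no support for a difference. The log2 changes were then -0.71 ± 0.25 for HTR12, -0.69 ± 0.19 for TOPII, -0.56 ± 0.20 for HTB2, -0.27 ± 0.13 for TOP3A and 0.27 ± 0.22 for HON4 (SE, 2 wild-type and 3 mutant arrays). The limma adjusted p values of HTR12, TOPII and HTB2 were 0.258, 0.184 and 0.264, so limma called 0 of the 5 genes, against 0.592% of all. The median change of the 5 genes was -0.56, against -0.11 without wild type replicate 2, -0.15 without wild type replicate 1, -0.17 without mutant replicate 1, -0.20 without mutant replicate 2 and -0.44 without mutant replicate 3. The size of the difference thus depended on which array was left out.

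The differences within same-numbered arrays (mutant minus wild type, log2) did not share a sign for 4 of the 5 genes. In the pairs numbered 1, 2 and 3 they were -0.72, -0.74 and 0.64 for HTB2 and -0.86, -0.91 and 0.55 for HTR12. They were -1.10, -0.42 and 0.19 for TOPII and -0.38, -0.20 and 0.45 for TOP3A. For these 4 genes the mutant was lower in pairs 1 and 2 and higher in pair 3. Pair 3 joins wild type replicate 3 and mutant replicate 3, so these signs restate the array pattern above. For HON4 the differences were 0.14, 0.0016 and 0.53, with the mutant higher in each pair. The labels give no pairing, and a pair here means only arrays of the same number.

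A similar pattern over the arrays was seen in 2 transcripts used as markers of dividing cells. Which cells these transcripts came from was not tested. Of 9 mitosis markers, 2 had a probe set of their own, the Aurora kinase genes AUR1 and AUR2, whose products act in chromosome segregation. AUR1 read 7.32, 7.39 and 6.28 in wild type and 6.21, 6.63 and 6.71 in the mutant. AUR2 read 7.54, 7.55 and 6.85 in wild type and 6.46, 6.78 and 6.92 in the mutant. For both, wild type replicates 1 and 2 were the highest arrays, wild type replicate 3 lay near the mutant arrays, and mutant replicate 1 was the lowest. Wild type replicate 3 lay 1.07 (AUR1) and 0.70 (AUR2) log2 units below the mean of the other wild-type arrays, a gap exceeded at 1.18% and 4.18% of the tested probe sets. A low wild type replicate 3 was not particular to these markers. The photosynthesis genes PRK, RCA, SBPASE, LHCB4.1 and LHCB4.2 also had their lowest wild-type value there. So had the histone chaperone genes SGA2 and ASF1B. PRK read 10.98, 11.31 and 10.51 in wild type, and SBPASE 11.04, 11.58 and 10.70. Of the other listed genes that were tested, SIM, TRY, SPCH, FMA, SWEET11 and AT5G26680 did not. The summed linear level of AUR1 and AUR2 was 193 to 355 on the wild-type arrays and 162 to 226 on the mutant arrays. The log2 changes of AUR1 and AUR2 were -0.48 ± 0.31 and -0.59 ± 0.23 (SE, n = 3 per genotype, limma adjusted p = 0.513 and 0.292). AUR2 had an unadjusted limma p of 0.0358. Such a p under 0.05 was reached by 14.9% of all tested probe sets, and with a lower mutant mean by 7.15%. The part of dividing cells in the values of HTB2, HTR12 and TOPII was not tested.

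**Figure D4:**
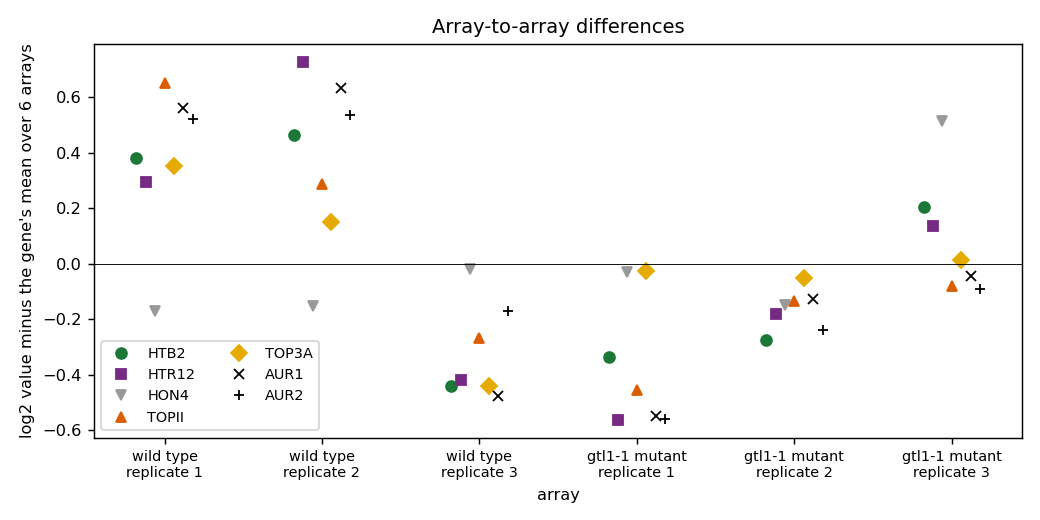
Log2 value minus the gene's own mean over the 6 arrays (vertical axis) for the 5 tested genes and the mitosis markers AUR1 and AUR2, by array (horizontal axis). HTB2, HTR12, TOPII, TOP3A, AUR1 and AUR2 lie above 0 on wild type replicates 1 and 2 and below 0 on wild type replicate 3 and mutant replicates 1 and 2, while HON4 does not follow them.

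Histone H4 was seen only through shared probe sets. The array holds 5 probe sets that the annotation assigns to HIS4, named histone H4 in the gene table, together with 7 other loci, so they were no members of the set and no single gene can be read from them. All 5 had a log2 change below 0, from -0.72 to -0.07, beside 51.2% of all tested probe sets. Limma called 0 of the 5, beside 0.921% of all. An unadjusted p under 0.05 with a lower mutant mean was reached by 1 of them, beside 7.15% of all tested probe sets. That probe set, 252562_s_at, read 10.14, 10.21 and 9.65 in wild type and 9.66, 8.92 and 9.25 in the mutant. Its lowest wild-type value lay just under the highest mutant value. The log2 change was -0.72 ± 0.23 (SE, n = 3 per genotype, limma adjusted p = 0.231). The probe set 247692_s_at read 13.15, 13.15 and 12.57 in wild type and 12.81, 12.94 and 12.91 in the mutant, again with wild type replicate 3 as the lowest array. Its log2 change was -0.07 ± 0.18 (SE, limma adjusted p = 0.886). The genotypes did not overlap for 1 of the 5, beside 10.1% of all tested probe sets with the mutant lower. This was 251924_at, which read 10.91, 10.82 and 10.86 in wild type and 10.80, 10.27 and 10.77 in the mutant (limma adjusted p = 0.531). Probe sets assigned to the same loci thus gave different sizes of change, and since they share loci they are not independent measurements.

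**Figure D5:**
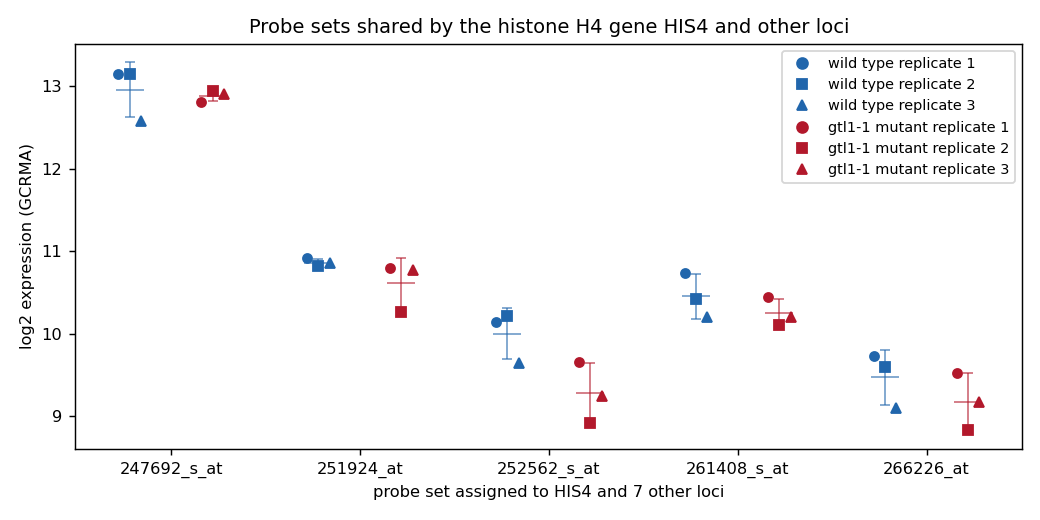
Log2 expression (vertical axis) of the 5 probe sets assigned to HIS4 and 7 other loci (horizontal axis) on each array, with blue symbols for wild type, red symbols for the gtl1-1 mutant and the replicate number given by the symbol shape. Horizontal ticks and bars are means ± SD of 3 arrays. The mutant mean is below the wild-type mean for each probe set, and the genotypes overlap for all of them except 251924_at.

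Other genes of DNA copying and chromatin assembly were read from 4 lists with 67 entries, of which 6 had a probe set of their own and 4 were tested. Limma called 0 of the 4, and 0 had an unadjusted p under 0.05, against 0.921% and 14.9% of all tested probe sets. At such shares, 0 of 4 does not set these genes apart from the array as a whole. In the list of histone chaperones, which hand histones to DNA, SGA2 (ASF1A) and ASF1B had log2 changes of -0.09 ± 0.15 and -0.04 ± 0.15 (SE, n = 3 per genotype). ASF1B read 7.62, 7.50 and 7.27 in wild type and 7.53, 7.26 and 7.49 in the mutant, values that overlapped almost fully. In the list of replication initiation and fork genes, AT5G26680 (FEN1) was tested, with a log2 change of 0.21 ± 0.13, and AT1G07270 lay near the floor. AT5G26680 was dim, with 3.93, 3.97 and 3.97 in wild type and 4.23, 3.97 and 4.29 in the mutant. Its genotypes did not overlap, as at 20.9% of all tested probe sets. Mutant replicate 2 and wild type replicates 2 and 3 were equal after rounding. Among endocycle regulators, SIM, which blocks cyclin-dependent kinases and keeps trichomes from dividing, had a log2 change of 0.12 ± 0.23. BIN4, a partner of topoisomerase VI needed for endoreduplication, read between 2.48 and 2.81 and was not tested. The list of DNA damage response genes had 0 members with a probe set of their own among its 16 entries.

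The tissue label was read through the few markers with a probe set of their own. Of 11 trichome genes, SIM and TRY could be read, and SIM stood at 11.67 ± 0.16 in wild type (log2, mean ± SD, n = 3). Transcripts used as markers of other leaf cells were also detected, and which cells they came from was not tested. The 5 of 9 photosynthesis markers that could be read summed to between 25937 and 40029 on the linear scale in wild type and between 24680 and 28450 in the mutant. The 3 of 6 stomatal markers summed to between 91.8 and 175 and between 82.1 and 116, and the 1 of 4 vascular markers to between 14.5 and 40.8 and between 29.4 and 43.1. Limma called 0 of the tested marker genes, against 0.921% of all tested probe sets. MUTE, 1 of the stomatal markers, was not tested. LHCB4.2 and LHCB4.1, proteins of the light-harvesting antenna, had log2 changes of -0.99 ± 0.26 and -0.39 ± 0.15 (SE, n = 3 per genotype, limma adjusted p = 0.171 and 0.295). Their unadjusted limma p values were 0.0066 and 0.037, where 14.9% of all tested probe sets had one under 0.05. PRK, RCA and SBPASE of the Calvin cycle had changes of 0.05, 0.01 and 0.03. The log2 changes were -0.99 ± 0.50 for TRY, -0.55 ± 0.27 and 0.21 ± 0.33 for the stomatal factors SPCH and FMA, and 0.54 ± 0.36 for the phloem sugar transporter gene SWEET11. The part of other leaf cells in the values of the histone and topoisomerase genes was not tested.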

How the data were processed

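The deposited file is 1 table of log2 values per probe set and array. Per the submitters' processing notes the authors used GCRMA, with the version not given in the sources used here. The log2 scale was read from the range of the values. GCRMA corrects background by probe sequence and compresses dim probe sets onto a floor, so changes of dim genes are limited by it. Of 22810 probe sets, 64 controls were left out, and 13682 above the 40th percentile of their own array on at least 3 arrays were tested, without further normalisation. The genotypes were compared in limma 3.58.1 with lmFit and eBayes (two-sided, R 4.3.3), with Benjamini-Hochberg adjustment over all tested probe sets, and called at an adjusted p under 0.05. The script was tested on simulated data.

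The rule's terms were searched, ignoring case, in the symbols and synonyms of the gene table. Of the 7 terms, 2 occur in no gene name there. Each member had 1 probe set. Of the probe sets, 13513 name 1 gene (77 of them no gene of the table), 503 name several and 8730 are unnamed here. No coordinates or sequences are given, as the sources used here hold no sequence and name no build. The members and lists were chosen with earlier results of these data known. All members are named, and so are, in each list, called genes and up to 2 genes with the smallest p, with others where a marker list is described.

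The genotypes share replicate numbers. Deviations from the genotype means correlated at 0.127, 0.275 and 0.118 between arrays numbered 1, 2 and 3, all over 0.1. Between arrays with different numbers the correlations ran from -0.212 to 0.087, the highest being not far below 0.118. The deviations of the 3 arrays of a genotype sum to 0, so these correlations are not independent of each other. On this weak evidence from the data, and none from the labels, the numbers may pair the arrays. The changes, errors and p-values given do not use the pairing. The replicate number as a block was an alternative, and the differences within pairs are given beside the results. The alternatives were other filters and normalisations, array weights, a robust variance trend, the replicate block, fits without each array, another threshold, averaging the probe sets of a gene and leaving out probe sets that can bind several transcripts. Arrays have no sequencing depth, and 3 arrays per genotype limit the precision.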

Additional observations from a re-analysis of the deposited data

How the results depend on the processing

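Limma called 0 of the 5 tested genes under each alternative run. The count of those with an unadjusted p under 0.05 was 0 in the main setting and 1 with array weights (TOPII, limma unadjusted p = 0.0257). It was between 0 and 3 with 1 array left out. The count of 3 came without wild type replicate 3, an array whose low values in these genes had been seen. In the main setting 14.9% of all tested probe sets had such a p. That share is not given here for the alternatives, so the counts of 1 and 3 cannot be judged against it. The change of TOP3A turned to 0.12 without wild type replicate 1 and to 0.02 without wild type replicate 2, in a range from -0.27 to 0.12 over the fits with 1 array left out, and the cause was not tested. The filter at the 60th percentile left out HTR12, TOPII and TOP3A, so that no topoisomerase value could be had and the median of the remaining genes, HTB2 and HON4, was -0.02. Across the whole array, 126 probe sets were called in the main setting, 68 with the replicate number as a block, 8 with no filter on dim probe sets, 228 at an adjusted p under 0.1, and between 31 and 81 with 1 array left out. The replicate block changed no call among the 5 genes. Averaging the probe sets of a gene and the removal of probe sets that can bind several transcripts left the medians as they were, as each gene had 1 probe set of the specific type.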
